A study of Sus scrofa with 16 samples.

Results

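*C1QTNF3* and *SPP1* encode secreted proteins whose transcripts stood far higher in satellite cells (SCs) of dystrophin-deficient DMD piglets than in SCs of wild-type (WT) piglets after differentiation. These 2 of 3875 counted genes were picked because of that genotype difference, which for *C1QTNF3* was also present in proliferating cells. The genotype values of *C1QTNF3* in either culture state and of *SPP1* in differentiated cells are therefore given as a description, with no test. The data are 3′ mRNA counts from 16 samples of cultured SCs, with 1 proliferating and 1 differentiated culture from each of 8 piglets.

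The SCs came from the *intercostalis* muscle of male piglets killed at 3 days of age. They were enriched by removal of cells carrying CD31 or CD45 and by positive selection, and RNA was taken at passage 6. The 4 groups, of 4 animals each, were WT in proliferation (WT PROL), WT in differentiation (WT DIFF), DMD in proliferation (DMD PROL) and DMD in differentiation (DMD DIFF). The DMD genotype is that of a porcine line in which exon 52 of *DMD*, the dystrophin gene, is deleted. All cultures received Ham's F10 medium with antibiotics. For PROL, the medium held 20% fetal bovine serum and basic fibroblast growth factor, and for DIFF it held 5% horse serum. The sequenced DIFF cultures are said to have had 10 days of differentiation, whereas the culture methods give 7 days.

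*C1QTNF3*, also called CTRP3 or cartducin, belongs to a family of secreted proteins that share a globular domain with complement C1q and with adiponectin, and it is known from adipose tissue and growing cartilage. *SPP1* encodes osteopontin, an acidic phosphoprotein of bone matrix and of injured tissue that binds integrins through an RGD motif and is cut by thrombin and matrix metalloproteinases. In dystrophic muscle, osteopontin is known as a product of macrophages and of myogenic cells, and variation at *SPP1* is known as a modifier of the course of DMD.

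Totals per sample ran from 1110050 to 1781174 counts, and 608 genes had no count in any sample. Each value in the table was an even number, so the smallest step between samples was 2 counts. Transcripts of *DMD* were few, with 6 counts in each WT PROL sample and 12 to 22 in each WT DIFF sample, and with 24 to 48 counts in the DMD samples. Counts at the 3′ end lie outside exon 52 and do not check the genotype. The myogenic markers that the table holds (5 of 8 listed, among them *DES* and *MYOG*) summed to 134 to 220 CPM (counts scaled to a common total by TMM) in WT PROL and 1227 to 2066 in WT DIFF. In DMD cells they summed to 3564 to 5355 CPM before and 9151 to 11404 after differentiation. Most of each sum was *MYLPF* and *DES*, at means of 7884 and 2055 CPM in DMD DIFF, where *MYOG* was at 45.5 CPM. *MYOD1* had a lower mean in DIFF than in PROL in WT (0.68 against 1.46 CPM) and in DMD (2.46 against 8.10 CPM). *MYF5* had no count in WT. The sum was thus higher in DMD in both states, as *C1QTNF3* was. It was also higher in WT DIFF than in WT PROL, whereas *SPP1* was lower in WT DIFF. The part of these markers in the results below was not tested. *PAX7*, the defining SC marker, was not analysed here. In bulk samples of this kind, fewer cells that express a gene and less RNA per cell cannot be told apart.

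*C1QTNF3* was near the lowest countable level in WT cells of either state. In WT PROL, replicates 1 to 4 were at 7.28, 4.96, 2.17 and 7.69 CPM, which rests on 4 to 10 counts per sample. In WT DIFF, they were at 2.75, 4.42, 5.18 and 6.80 CPM, again from 4 to 10 counts. These ranges overlapped almost fully, with means of 5.53 ± 2.54 and 4.79 ± 1.68 CPM (SD, n = 4 animals each). In DMD PROL, the 4 animals were at 119, 209, 129 and 57.7 CPM, a mean of 129 ± 61.9 CPM. In DMD DIFF, the same animals were at 262, 388, 204 and 296 CPM, a mean of 288 ± 77.0 CPM. The lowest DMD sample, at 88 counts, thus stood above the highest WT sample, at 10 counts, and the order of group means was DMD DIFF, DMD PROL, WT PROL and WT DIFF. The step from DMD to WT was the single place in that order where neighbouring groups did not overlap.

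**Figure D1:**
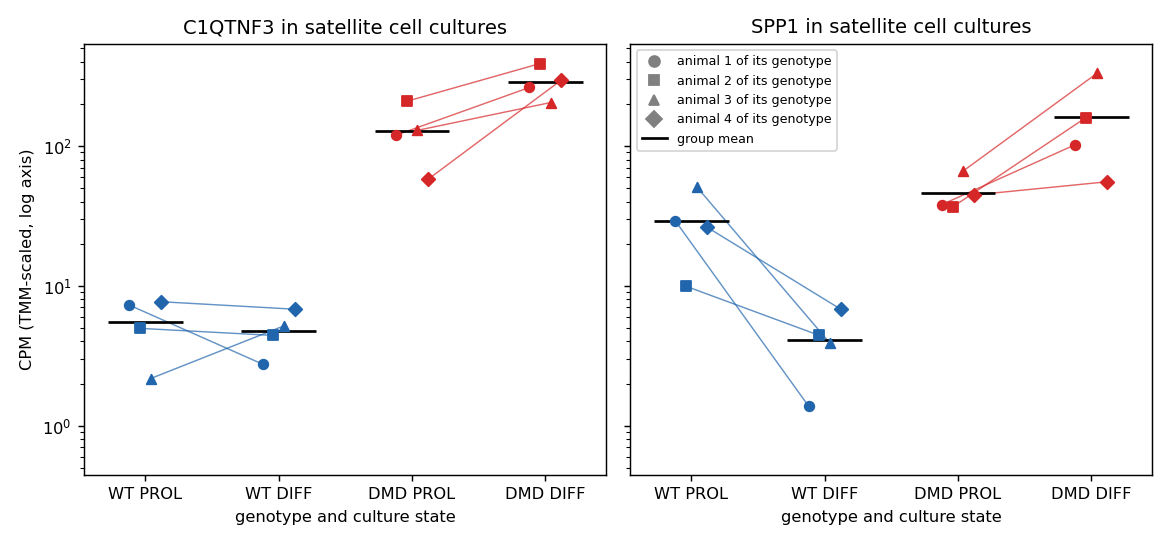
CPM of *C1QTNF3* (left) and *SPP1* (right) in every sample on a shared log axis, with WT animals in blue, DMD animals in red, a line joining the PROL and DIFF culture of each animal and a black bar at each group mean. *C1QTNF3* stands at 57.7 to 388 CPM in all DMD samples and at 2.17 to 7.69 CPM in all WT samples, whereas the *SPP1* lines run down in all 4 WT animals and up in all 4 DMD animals.

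As a log2 fold change of DMD over WT, fitted with edgeR, *C1QTNF3* was at 5.88 (SE 0.27) in DIFF and at 4.58 (SE 0.48) in PROL. These are 58.8-fold and 23.8-fold, which ranked 2nd among 1916 tested genes in DIFF and 11th among 1914 in PROL. In DIFF, 33.6% of tested genes passed the call used here (adjusted *p* under 0.05 with a log2 fold change over 0.6 in either direction), and 16.1% passed it as higher in DMD, while the 4 DMD and 4 WT samples did not overlap for 45.3% of genes. In PROL, these shares were 18.2%, 8.36% and 30%. *C1QTNF3* lies inside these shares by choice, so nothing is read from them. The size of the fold in DIFF rested on the few WT counts, since it was 6.90 from the first of the technical duplicate columns alone and 5.29 from the second alone.

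*SPP1* showed a different course. In WT PROL, replicates 1 to 4 were at 29.1, 9.93, 51.1 and 26.2 CPM (mean 29.1 ± 16.9, from 16 to 94 counts). In WT DIFF, the same animals were at 1.38, 4.42, 3.88 and 6.80 CPM (mean 4.12 ± 2.23, from 2 to 10 counts). All WT DIFF samples lay under all WT PROL samples. In DMD PROL, the animals were at 38.1, 36.7, 66.4 and 44.6 CPM (mean 46.4 ± 13.7, from 58 to 114 counts). In DMD DIFF, they were at 102, 160, 329.7 and 55.5 CPM (mean 162 ± 119.8, from 78 to 458 counts). DMD PROL overlapped both WT PROL and DMD DIFF, so that of the steps in the order DMD DIFF, DMD PROL, WT PROL and WT DIFF, only the last separated neighbouring groups. Replicate 3 held 47.9% of the *SPP1* counts of DMD DIFF, and without it the group mean was 106 CPM.

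The genotype difference of *SPP1* in PROL involves libraries that played no part in its choice, and it was tested. These libraries come from the same animals as the DIFF libraries that led to the choice, so the test is not fully independent of it. The log2 fold change was 0.66 (SE 0.38, edgeR's adjusted *p* = 0.241, n = 4 against 4), which does not pass the call. Higher values in DMD were thus not resolved from the spread between animals in PROL, although a 1.58-fold difference was fitted. Without WT PROL replicate 3, the highest WT sample at 51.1 CPM, the fold change was 1.10 with an adjusted *p* from edgeR of 0.0294, so 1 library decided this call. In DIFF, the log2 fold change was 5.26 (SE 0.77), a 38.2-fold difference that ranked 3rd of 1916 genes and is given as a description. Without DMD DIFF replicate 3 it was 4.66.

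With differentiation, *SPP1* went down in every WT animal and up in every DMD animal. The ratio of DIFF to PROL was 0.0473, 0.445, 0.0760 and 0.260 in WT animals 1 to 4, which are reductions of 21.2-fold, 2.25-fold, 13.2-fold and 3.84-fold. In DMD animals 1 to 4, it was 2.68, 4.36, 4.97 and 1.24. The WT DIFF values rest on 2 to 10 counts per sample, and that of WT animal 1 on 2 counts. The sizes of the WT reductions are therefore imprecise. With a prior count of 2, the change in WT animal 1 was −3.50 on the log2 scale. Within WT, the fitted log2 fold change of DIFF over PROL was −2.82 (SE 0.52), the 23rd lowest of 1921 genes, and it lay between −3.18 and −2.39 when any single library was left out. Within DMD it was 1.78 (SE 0.58), and 1.19 without DMD DIFF replicate 3. Both comparisons contain the DIFF libraries whose values led to the choice of *SPP1*, so they are given as a description with no test. In these comparisons 32.2% of all genes were called within WT and 28.4% within DMD, and the groups did not overlap for 43.1% and 40.6%, from which nothing is read for *SPP1*. The difference between the state changes of the genotypes, at 4.61 on the log2 scale (SE 0.91), was not tested for the same reason. It was 4.00 without DMD DIFF replicate 3.

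*C1QTNF3* was higher in DIFF than in PROL in each of 4 DMD animals, with ratios of 2.19, 1.86, 1.58 and 5.12 in replicates 1 to 4. The largest ratio belonged to replicate 4, which had the lowest PROL value of the group, at 57.7 CPM. In WT animals 1 to 4 the ratios were 0.378, 0.890, 2.38 and 0.884, and only 1 of 4 animals was higher in DIFF. These WT values rest on 4 to 10 counts per sample, and WT animal 4 had 10 counts in both states. The WT directions are therefore not resolved. Within DMD, the fitted log2 fold change was 1.15 (SE 0.38), again a description with no test, since libraries of both states entered the choice of the gene. The 2 groups overlapped, at 204 CPM in DIFF replicate 3 against 209 CPM in PROL replicate 2, and the fold change lay between 0.91 and 1.48 when any single library was left out. Within WT, the gene did not pass the filter on low counts. A fit with no filter gave a log2 fold change of −0.21.

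The values of *SPP1* spread more within a group than those of most genes. The SD of log2 CPM among the 4 DMD DIFF animals was 1.07, larger than that of 97.6% of 2030 genes, for which the median SD was 0.248. It was 0.92 in WT PROL (larger than 95.8% of genes), 0.67 in WT DIFF (90.4%) and 0.38 in DMD PROL (72.7%). The genes were not matched for level, and counting error widens the SD of genes with few counts. In WT DIFF, *SPP1* had 2 to 10 counts per sample, so its SD there does not separate animals from counting error. *C1QTNF3* varied most in DMD PROL, with an SD of 0.75 (93.1%), and less in DMD DIFF, at 0.38 (70.7%). The animals were ranked differently by the 2 genes. DMD animal 3 had the highest *SPP1* of its genotype in both states and the lowest *C1QTNF3* in DIFF, whereas DMD animal 2 had the highest *C1QTNF3* in both states.

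Each sample was sequenced as a technical duplicate, which gives a second measure of error. For *SPP1*, the higher column was under 1.5 times the lower one in 11 of 16 samples, and for *C1QTNF3* in 7 of 16. The largest ratio in a DMD group was 1.55 to 1.64 for either gene, and among WT samples with a count in both columns it reached 3.80, for *C1QTNF3* in WT DIFF. WT PROL replicate 3 and WT DIFF replicate 1 had 4 *C1QTNF3* counts in 1 column and 0 in the other, and WT DIFF replicate 1 had 2 and 0 for *SPP1*. *SPP1* was higher in the second column in 15 of 16 samples, which 0.0985% of 2030 genes matched or exceeded, against a median of 9 samples over all genes. *C1QTNF3* was higher there in 9 of 16 samples.

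**Figure D2:**
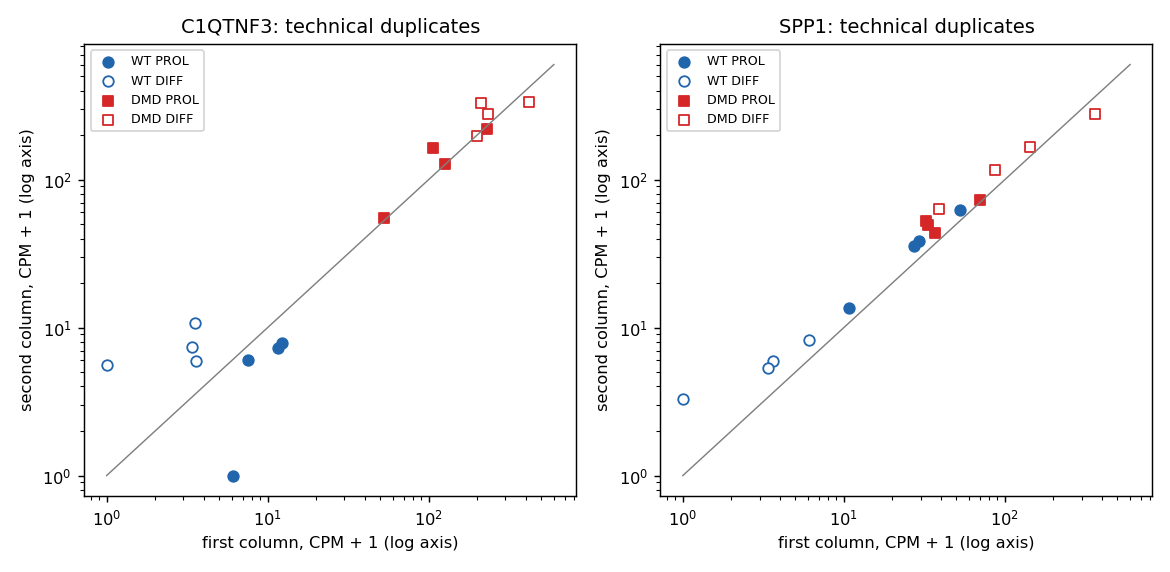
CPM plus 1 of the first technical column against the second for *C1QTNF3* (left) and *SPP1* (right), on log axes, with WT as circles, DMD as squares, PROL filled and DIFF open. The grey line marks equal values, and 15 of 16 *SPP1* points lie above it.

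Around these 2 genes, lists of relatives, receptors, processing enzymes, transcription factors, signalling genes and other matrix proteins were drawn up, and 57 further genes on them had a row in the table. In DIFF, 7 of 35 tested list genes were higher and 9 lower in DMD, with a median log2 fold change of −0.02 against −0.03 over all genes, of which 16.1% were called as higher and 17.5% as lower. In PROL, 4 of 34 were higher and 8 lower (median −0.16 against −0.00, with 8.36% and 9.87% of all genes called). With differentiation, 9 of 35 rose and 3 fell in WT (median 0.13 against 0.03, with 17.9% and 14.3% of all genes called), and 11 of 32 rose and 5 fell in DMD (median 0.36 against 0.01, with 16.0% and 12.4%). The state change itself differed between genotypes for 11 of 36 list genes, 7 with a more positive change in DMD and 4 with a more negative one. In that test 23.4% of all 2030 genes were called, 10.5% as more positive and 13.0% as more negative.

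**Figure D3:**
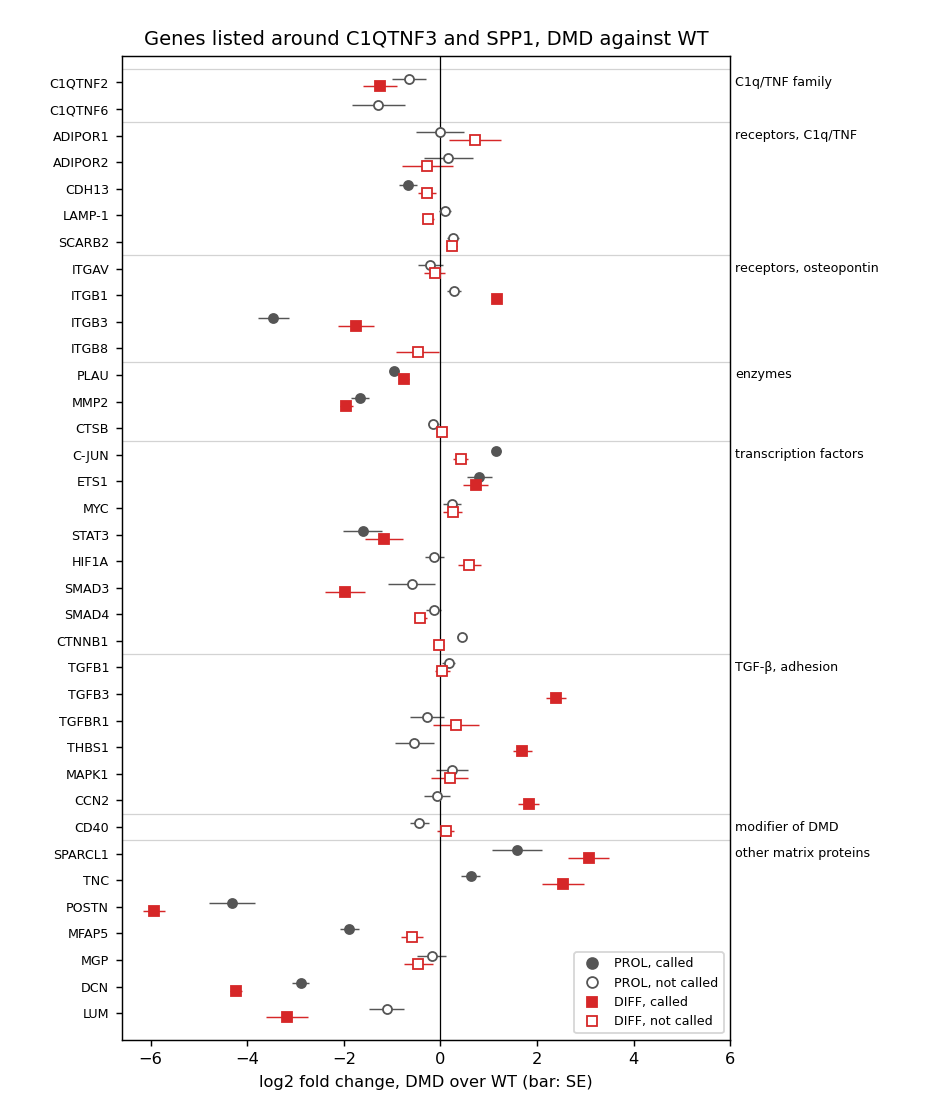
Log2 fold change of DMD over WT (bars, SE) for the list genes tested in PROL (grey circles) or DIFF (red squares), filled where called and grouped by role from top to bottom. *TGFB3*, *THBS1*, *CCN2*, *TNC* and *SPARCL1* lie to the right in DIFF, while *POSTN*, *DCN*, *LUM*, *MMP2* and *SMAD3* lie to the left.

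Among the relatives of *C1QTNF3*, 1 gene was called as lower in DMD cells and none as higher, with 1 tested in DIFF and 2 in PROL. Over all genes, 17.5% were called as lower in DMD in DIFF and 9.87% in PROL. Of 26 listed family genes, 9 besides *C1QTNF3* had a row, and among these *ADIPOQ* (adiponectin), *C1QA*, *C1QB* and *COL10A1* had no count at all. *C1QTNF2* was lower in DMD DIFF than in WT DIFF, at 13.8 ± 5.39 against 33.3 ± 11.7 CPM (log2 fold change −1.26, SE 0.35, edgeR's adjusted *p* = 0.00742). *C1QTNF6* was tested in PROL and was not called there, at 4.05 ± 3.23 CPM in DMD and 9.97 ± 3.79 CPM in WT. Near *SPP1* in its own family of bone and tooth matrix proteins, *DMP1* had 2 counts and *DSPP* 6 counts over all 16 samples, too few to test.

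Of 5 tested genes for proposed receptors of C1q/TNF proteins, none was called between genotypes in DIFF and 1 was in PROL. The shares over all genes were 33.6% and 18.2%. *LAMP-1*, which encodes a lysosomal membrane protein reported to bind CTRP3, had means of 229 and 283 CPM in proliferating and differentiated WT cells and of 247 and 239 CPM in the DMD cells, and was called in no comparison. *SCARB2*, its lysosomal partner in that role, rose with differentiation in WT animals (log2 fold change 0.94, SE 0.12, edgeR's adjusted *p* = 9.40e-06) as in DMD animals (0.92, SE 0.12, edgeR's adjusted *p* = 1.16e-05). The WT call was lost with library size alone, at 0.59. *CDH13*, which encodes the adiponectin-binding T-cadherin, was lower in DMD PROL, at 68.5 ± 4.55 against 108 ± 27.4 CPM (log2 fold change −0.67, edgeR's adjusted *p* = 0.0112). That call was lost without WT PROL replicate 3. *ADIPOR1* and *ADIPOR2*, the adiponectin receptors, were called in no comparison.

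Of 4 osteopontin receptor genes tested in DIFF, 2 integrin subunits went opposite ways between genotypes, while 33.6% of all genes were called there. *ITGB1*, whose protein was 1 of the surface antigens used to enrich the cells, averaged 7753 ± 671 CPM in DMD DIFF against 3440 ± 272 CPM in the WT (log2 fold change 1.16, SE 0.09, edgeR's adjusted *p* = 4.46e-08). In PROL *ITGB1* was not called, at 5121 ± 734 CPM in DMD against 4188 ± 828 CPM in WT (0.28, edgeR's adjusted *p* = 0.189). *ITGB3*, which pairs with *ITGAV* as the classical osteopontin receptor, was lower in DMD in PROL, at 4.96 ± 2.87 against 55.0 ± 5.63 CPM (log2 fold change −3.46, SE 0.32, edgeR's adjusted *p* = 1.15e-06). It was also lower in DIFF, at 12.6 ± 6.54 against 41.7 ± 10.1 CPM (log2 fold change −1.75, SE 0.37, edgeR's adjusted *p* = 9.13e-04). *ITGAV* itself had means from 39.0 to 58.1 CPM in the 4 groups and was called in no comparison. *ITGB8* rose with differentiation in WT (log2 fold change 1.60, edgeR's adjusted *p* = 0.0442), a call lost without any one of WT PROL or WT DIFF replicates 1 to 3. That call was also lost with library size alone (1.24). *CD44*, another osteopontin receptor, was not analysed here.

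The enzymes that cut or activate osteopontin were lower in DMD or not resolved. *MMP2*, a gelatinase, was at 72.4 ± 14.8 CPM in DMD DIFF against 277 ± 27.7 in WT DIFF (log2 fold change −1.95, SE 0.14, edgeR's adjusted *p* = 1.39e-08), and at 48.5 ± 9.25 against 153 ± 33.4 CPM in PROL (−1.67, SE 0.19, edgeR's adjusted *p* = 7.48e-06). *PLAU*, the urokinase plasminogen activator, was lower in DMD in DIFF (−0.74, edgeR's adjusted *p* = 3.31e-06) and in PROL (−0.96, edgeR's adjusted *p* = 7.54e-06). It rose with differentiation in WT (1.08, edgeR's adjusted *p* = 2.12e-07) and in DMD (1.30, edgeR's adjusted *p* = 1.40e-08). *CTSB*, a lysosomal protease, rose with differentiation in DMD (0.70, edgeR's adjusted *p* = 8.22e-06) and did not differ in a called way between genotypes. The thrombin gene *F2* had 6 counts, *MMP3* 2 and *MMP7* 4 over all samples, and the bone phosphatase gene *ACP5* had none.

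Among 8 tested genes for transcription factors known to act on *SPP1*, 1 was higher and 2 were lower in DMD DIFF. The shares over all genes were 16.1% and 17.5%, so nothing is read from these counts. *SMAD3*, a mediator of TGF-β signals, averaged 3.66 ± 0.97 CPM in DMD DIFF against 14.7 ± 2.21 CPM in the WT (log2 fold change −1.98, SE 0.41, edgeR's adjusted *p* = 7.43e-04). *STAT3* was lower in DMD in PROL (−1.61, edgeR's adjusted *p* = 0.00807) and in DIFF (−1.16, edgeR's adjusted *p* = 0.0208), the latter lost without WT DIFF replicate 1, DMD DIFF replicate 3 or DMD DIFF replicate 4. *C-JUN*, an AP-1 subunit, averaged 569 ± 58.7 CPM in DMD PROL against 253 ± 10.0 CPM in the WT (1.16, SE 0.10, edgeR's adjusted *p* = 2.81e-07). It fell with differentiation in DMD (−1.04, edgeR's adjusted *p* = 8.24e-06), where *SPP1* was higher in DIFF in 4 of 4 animals. *ETS1* was higher in DMD in PROL (0.81, edgeR's adjusted *p* = 0.0286) and DIFF (0.73, edgeR's adjusted *p* = 0.0259), and *MYC* fell with differentiation in WT (−0.67, edgeR's adjusted *p* = 0.0200) and in DMD (−0.65, edgeR's adjusted *p* = 0.00673). With library size alone, the state change of *C-JUN* no longer differed between genotypes in a called way (−0.46 against −0.74). The calls of *ETS1* and *MYC* did not hold under all fits that leave out a library. *ETS1* was lost in 6 of 8 such fits in PROL and 3 of 8 in DIFF, and *MYC* in 2 of 8 in WT and 3 of 8 in DMD. The DIFF call of *ETS1* was also lost in either technical column alone. Its PROL call was lost with library size alone and in the first technical column (0.53), and the DMD call of *MYC* in the first technical column (−0.55).

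Of 6 tested genes of TGF-β signalling and adhesion, 3 were higher in DMD DIFF, and the same 3 had a more positive state change in DMD than in WT. Over all genes, 16.1% were called as higher in DMD DIFF and 10.5% as more positive in their state change. With so few genes, nothing is read from these counts. *THBS1* encodes thrombospondin-1, which activates latent TGF-β. It was at 4769 ± 1005 CPM in DMD DIFF against 1466 ± 335 in WT DIFF (log2 fold change 1.69, SE 0.20, edgeR's adjusted *p* = 4.20e-05), and at 1607 ± 675 against 2321 ± 868 CPM in PROL, where it was not called. It rose with differentiation in DMD (1.56, SE 0.33, edgeR's adjusted *p* = 0.00882), and its state change differed between genotypes by 2.23 (SE 0.47, edgeR's adjusted *p* = 0.00293). *CCN2*, the connective tissue growth factor gene, had the same course, with 88.2 ± 16.2 CPM in DMD DIFF against 24.7 ± 6.90 CPM in the WT (1.83, SE 0.22, edgeR's adjusted *p* = 3.71e-06), with a difference between the state changes of 1.90 (SE 0.36, edgeR's adjusted *p* = 2.69e-04). *THBS1* and *CCN2* rose in each of 4 DMD animals from PROL to DIFF, and each was higher in DIFF in 1 of 4 WT animals.

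*TGFB3* rose in both genotypes and rose further in DMD. It went from 3.82 ± 0.99 to 18.01 ± 5.45 CPM in WT and from 7.10 ± 4.01 to 96.1 ± 7.48 CPM in DMD. Its state change was 2.18 (SE 0.40, edgeR's adjusted *p* = 3.88e-04) in WT and 3.73 (SE 0.28, edgeR's adjusted *p* = 1.48e-08) in DMD. The difference of 1.55 (edgeR's adjusted *p* = 0.0243) was lost without WT PROL replicate 2 or 3, and it was 0.39 in the first technical column alone. *TGFB1* fell with differentiation in WT (−0.98, edgeR's adjusted *p* = 2.44e-05) and in DMD (−1.11, edgeR's adjusted *p* = 1.13e-05). *CD40*, listed with *SPP1* and *THBS1* as a modifier of DMD, rose with differentiation in DMD (0.66, edgeR's adjusted *p* = 0.00660) and was not called in WT (0.11). The DMD call was lost with library size alone (0.59) and in the first technical column (0.52), and the difference between the state changes was not called (0.55, edgeR's adjusted *p* = 0.105).

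**Figure D4:**
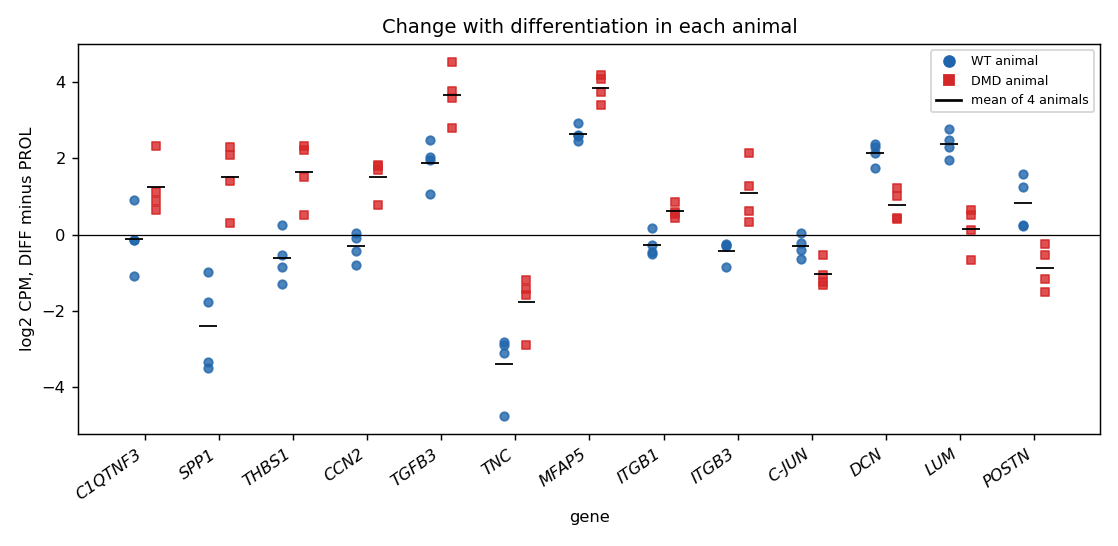
Change with differentiation in each animal, as log2 CPM (with a prior count of 2) in DIFF minus that in PROL, for *C1QTNF3*, *SPP1* and the 11 list genes whose state change was called as different between genotypes, with WT as circles, DMD as squares and a bar at the mean of 4 animals. *SPP1* and *ITGB3* lie under 0 in all WT animals and above 0 in all DMD animals, and *POSTN* the other way round.

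Other secreted matrix proteins were split. *TNC*, encoding tenascin-C, and *SPARCL1* were higher in DMD DIFF, at 42.4 ± 19.3 against 7.12 ± 3.27 CPM (log2 fold change 2.54, SE 0.44, edgeR's adjusted *p* = 1.97e-04) and at 23.8 ± 4.99 against 2.78 ± 1.25 CPM (3.07, SE 0.42, edgeR's adjusted *p* = 1.39e-05). In PROL they were higher by 0.63 and 1.59 (edgeR's adjusted *p* = 0.0333 and 0.0326), calls that were lost in 5 of 8 fits that leave out a library. That of *TNC* was also lost with library size alone, in either technical column alone and with the dispersion taken from all samples. With differentiation, *TNC* fell in WT (−3.57, edgeR's adjusted *p* = 6.99e-07), as *SPP1* did. Unlike *SPP1*, *TNC* also fell in DMD (−1.65, edgeR's adjusted *p* = 0.00140), and the difference of 1.91 was called (edgeR's adjusted *p* = 0.00914). *POSTN*, the periostin gene, averaged 24.1 ± 10.1 CPM in DMD DIFF against 1442 ± 214 CPM in the WT (−5.93, SE 0.22, edgeR's adjusted *p* = 1.44e-09). The small proteoglycan genes *DCN* (−4.23, edgeR's adjusted *p* = 2.45e-13) and *LUM* (−3.17, edgeR's adjusted *p* = 9.70e-04) were lower in DMD DIFF as well. *MFAP5* was lower in DMD PROL (−1.89, edgeR's adjusted *p* = 3.59e-06) and rose with differentiation in either genotype, as did *MGP*, the matrix Gla protein gene.

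Markers of other cells that are known to make these proteins were also counted. Of 14 macrophage markers 9 had a row, and their summed level was 30.8 to 36.1 CPM in DMD DIFF against 58.9 to 71.6 in WT DIFF, with *FCER1G*, *C1QA* and *C1QB* at 0 in all groups. Most of that sum was *CD14*, at 20.0 ± 2.18 CPM in DMD DIFF against 52.5 ± 6.54 in the WT. *TYROBP* had its highest mean in DMD DIFF, at 12.4 ± 2.88 against 6.61 ± 2.47 CPM in the WT (log2 fold change 0.91, edgeR's adjusted *p* = 0.0787, not called). The 3 bone markers with a row were at 0 in all DMD DIFF samples. Of 7 adipocyte markers 6 had a row and summed to 2.3 to 13.0 CPM in DMD DIFF, with *ADIPOQ* and *LPL* at 0 in every group. The cartilage list (3 with a row) was nearly all *SOX9*, and summed to 4.2 to 11.4 CPM in DMD DIFF and 70.7 to 126.6 in WT DIFF. Fibroblast markers (6 with a row) summed to 9476 to 12703 CPM in DMD DIFF, below WT DIFF (21289 to 24375) and above DMD PROL (4139 to 4577). Within that list, *DCN*, *LUM*, *COL3A1*, *THY1* and *POSTN* were called as lower in DMD DIFF, whereas *COL1A2* had its highest mean there, at 9100 ± 1122 against 7909 ± 692 CPM in the WT (log2 fold change 0.20, not called). Smooth muscle and pericyte markers (4 of 8 with a row) summed to 15803 to 20383 CPM in DMD DIFF against 1512 to 3472 in the other groups. That sum was *ACTA2*, *TAGLN* and *CNN1*, while the pericyte marker *RGS5* was at 105 ± 79.8 CPM in WT PROL and at means of 4.29 to 5.81 CPM in the other groups. The part of these cells in the results was not tested. Endothelial markers (3 with a row) were at 27.4 to 49.0 CPM in DMD DIFF against 60.5 to 114 in WT DIFF, and epithelial markers (2 with a row) at 0 to 1.4 CPM in any sample.

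Finally, the genes with the course most like that of each gene over the 16 samples were sought, by the root mean square difference of log2 CPM centred on the gene mean. For *C1QTNF3* these were *MYH1* (0.875), *FITM1* (0.915), *MYOT* (1.04), *MYBPH* (1.05) and *TRIM63* (1.05), against a median of 2.59 over 2028 genes. *MYH1*, *MYOT* and *MYBPH* encode proteins of the sarcomere, and *TRIM63* a ubiquitin ligase of muscle. Likeness was taken over the samples whose genotype difference led to the choice of *C1QTNF3*, so genes with that difference are favoured. In WT PROL, *FITM1*, *MYOT* and *TRIM63* averaged 0.73, 0.66 and 0.36 CPM, near the lowest countable level. Whether muscle genes as a set are near *C1QTNF3* was not tested. *MYH1* went from 1.40 ± 1.27 to 3.78 ± 1.29 CPM with differentiation in WT, and from 30.4 ± 13.5 to 92.7 ± 41.0 CPM in DMD. For *SPP1*, the nearest were *LOC595121* (0.986), *LIPG* (1.07), *INPP4A* (1.14), *SLC5A4* (1.17) and *SRPK3* (1.17), against a median of 1.91. The root mean square of *SPP1* around its own mean was 1.84. With a prior count of 0.5 or with library size alone, 3 to 5 of these 5 genes stayed among the nearest to *SPP1*. For *C1QTNF3*, 4 to 5 did. *LIPG*, the endothelial lipase gene, was lower in WT DIFF than in WT PROL, as *SPP1* was, going from 13.1 ± 6.76 to 1.67 ± 1.27 CPM, and higher in DMD DIFF than in DMD PROL, from 5.14 ± 4.39 to 46.5 ± 4.75 CPM. In PROL its mean was higher in WT than in DMD, the reverse of *SPP1*. *C1QTNF3* and *SPP1* differed from each other by 1.61 and shared none of these genes.

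**Figure D5:**
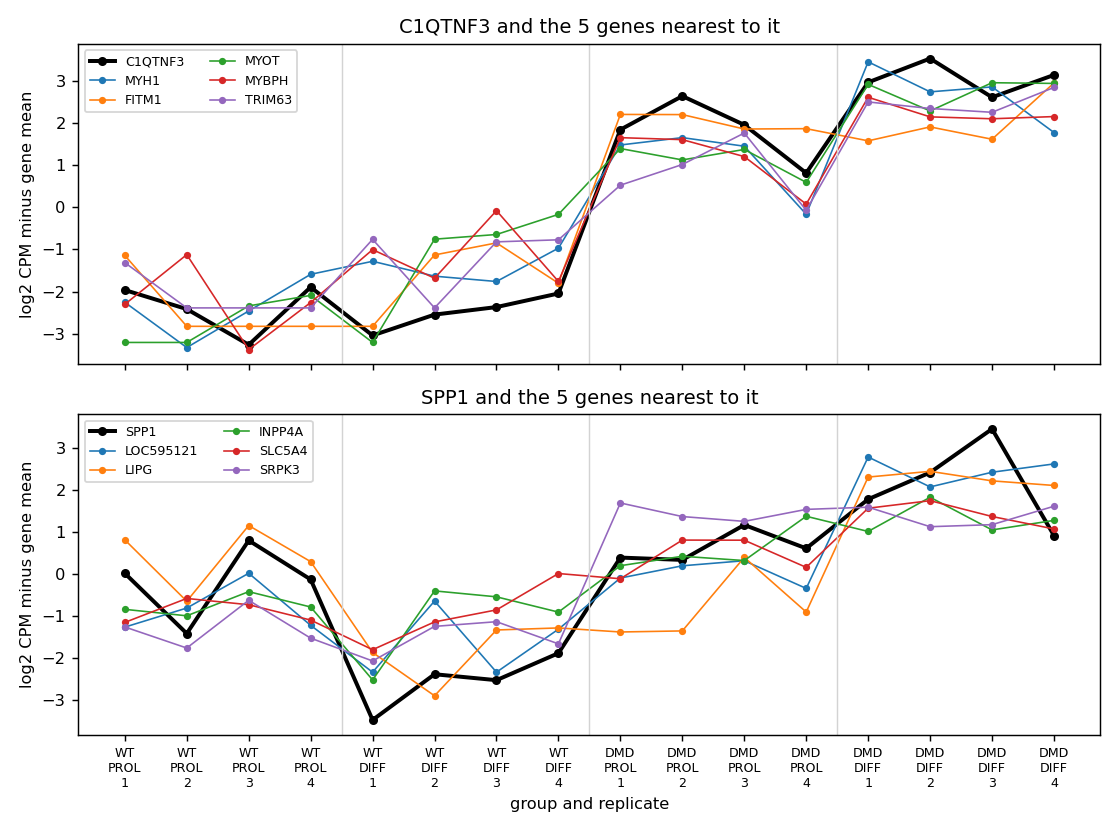
Log2 CPM minus the gene mean over 16 samples, by group and replicate, for *C1QTNF3* with its 5 nearest genes (top) and *SPP1* with its 5 nearest (bottom), the named gene in black. The *C1QTNF3* set splits WT from DMD, while *SPP1* and *LIPG* are lower in WT DIFF than in WT PROL and are highest in DMD DIFF.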

How the data were processed

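According to the authors, 3′ libraries with molecular identifiers were made from 25 ng of total RNA in technical duplicate, and reads were aligned with STAR 2.7.10b to susScr3 and counted per gene. The deposited values are the raw counts per gene in 32 columns, without normalization. The annotation and the strand setting are not given in the sources used here. The submitters' notes also name bcl2fastq, FastQC, MultiQC and R 4.1.2. All 124000 values are even, which no source explains; they were used as they stand.

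Duplicate columns were added for each sample. Tests used R 4.3.3 with edgeR 4.0.16 (filterByExpr with a minimum count of 10 and a total of 15, TMM, robust glmQLFit, glmQLFTest) on the 8 libraries of each comparison, or all 16 for the difference between state changes, with Benjamini-Hochberg adjustment. Genes were called at an adjusted *p* under 0.05 if the log2 fold change also exceeded 0.6 in either direction. Totals of 1110050 to 1781174 counts set the precision. CPM are means over animals with their SD. P-values of the genotype comparisons measure the spread between these animals. PROL and DIFF cultures of a number come from the same animal, and their deviations from group means correlated at 0.0998 to 0.172, each best with its own in 8 of 8 animals. The main fits of the state changes and of their difference had no term for the animal. Their p-values thus treat the 2 cultures of an animal as independent libraries and do not measure the spread of changes per animal. The alternative fits with the animal as a block keep the pairing. WT and DMD animals share only a number. The scripts were tested on simulated data.

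*C1QTNF3*, *SPP1* and the gene lists were chosen with earlier results of these data known. Tests of their state changes were planned, but these use libraries that led to the choice, so fold changes are given without p-values. Of 184 list genes, 92 had a row, 2 of them under an older symbol. List genes were named if called in a comparison or if holding the most counts of their role, and the nearest 5 genes by root mean square difference. In the RefSeq gene table of Sscrofa11.1, neither gene overlapped another, and no coordinates are given because the builds differ. Alternatives were DESeq2 1.42.0, DESeq2-style (RLE) size factors, library size alone, other count filters, each technical column alone, halved counts, a shared dispersion, a replicate block and leaving out each library.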

Additional observations from a re-analysis of the deposited data

Results flagged for a closer look

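The state change of *SPP1* differed between DMD and WT by 4.61 on the log2 scale, with all 4 WT animals lower and all 4 DMD animals higher in DIFF. This difference was not tested, because *SPP1* was chosen from libraries that enter it. The edgeR interaction test called a different state change, DMD minus WT, for *THBS1* (2.23), *TNC* (1.91), *CCN2* (1.90), *ITGB3* (1.71), *TGFB3* (1.55), *MFAP5* (1.30), *ITGB1* (0.88), *C-JUN* (−0.74), *DCN* (−1.34), *POSTN* (−1.61) and *LUM* (−2.06). The difference for *POSTN* was lost in 11 of 16 fits that leave out a library, with library size alone (−1.33), with no filter (−1.61), in the second technical column (−1.31) and with halved counts (−1.63). That for *ITGB3* was lost without DMD DIFF replicate 3 and in the second technical column (1.31), that for *TGFB3* without WT PROL replicate 2 or 3 and in the first technical column (0.39), and that for *C-JUN* with library size alone (−0.46).

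In 4 of 116 groups of 4 samples, 1 sample stood far from the other three by Dixon's criterion, which chance alone meets in about 1 in 20 groups. These were *MFAP5* in WT DIFF at 871 CPM, *PLAU* in WT DIFF at 819 CPM, *TGFB1* in WT DIFF at 60.5 CPM and *TGFB1* in DMD DIFF at 87.8 CPM. No group of *C1QTNF3* or *SPP1* was among them.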

How the results depend on the processing

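The state changes of both genes within DMD are given as fold changes, without a test. Over 10 other settings the log2 fold change lay between 1.05 and 1.21 for *C1QTNF3* and between 1.60 and 1.92 for *SPP1*. For *C1QTNF3* the edgeR log2 fold change was 1.13 with RLE size factors, 1.05 with library size alone, 1.15 with no filter and 1.13 from the second technical column, and 0.91 to 1.48 without a library. For *SPP1* it was 1.71 with library size alone, 1.79 with no filter and 1.92 from the first column, and 1.19 to 2.08 without a library. *SPP1* in PROL, DMD against WT, was not called in 10 of 10 other settings and ranged from 0.36 to 1.10 without a library. The difference in state change of *C1QTNF3*, at 1.29 (SE 0.74) from the added columns, was 2.77 in the first technical column and 0.18 in the second. Its log2 fold change of DMD over WT in DIFF was 6.90 and 5.29 in these columns. The group means without each sample, an alternative chosen after seeing the data, ran from 106 to 197 CPM for *SPP1* in DMD DIFF. Of 1254 values of named list genes, none was reversed and 83 lost their call.

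With the animal as a replicate block, the state changes within DMD were 1.21 for *C1QTNF3* and 1.60 for *SPP1*, and that of *SPP1* within WT −2.74. With the number as a block, *SPP1* in PROL, DMD over WT, was at 0.77 (edgeR's adjusted *p* = 0.0587). That genotype difference in PROL was thus not called with the block either.

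Library size alone shifted the median of all genes by 0.135 in DIFF, −0.145 in PROL, −0.347 within WT and 0.281 in the difference between state changes. Calls as higher and lower went from 308 and 335 to 387 and 267 in DIFF, from 160 and 189 to 122 and 264 in PROL, from 343 and 275 to 194 and 564 within WT, and from 213 and 263 to 387 and 134 in the difference. Relative to that median, *SPP1* within WT was at −2.85 and −2.84. Counts of 2 to 10 per sample limit the WT DIFF levels.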
